A study of Mus musculus with 7 samples.

Results

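The expression of 10 genes that regulate or mark hair follicle stem cells and their surroundings was examined in CD45neg keratinocytes of mouse epidermis, 3 weeks after bone marrow transplantation (BMT). The genes were given as a list of symbols, *Sox9*, *Lhx2*, *Lgr5*, *Lgr6*, *Lrig1*, *Cd34*, *Postn*, *Gata6*, *Nfatc1* and *Bmp7*, and all 10 are among the 26383 genes of the keratinocyte table. Hosts were male C57BL/6 mice (CD45.2) given a lethal dose of irradiation, and donors were female C57BL/6 mice (CD45.1). There is 1 keratinocyte library labeled donor BMT and 1 labeled BMT plus T-cells (named BMT + T cells below). The design text of the series has all mice receive both CD4 T cells and Matahari (Mh) CD8 T cells, whereas the labels give T cells to 1 of the keratinocyte libraries, so the libraries are called by their labels. The study describes its keratinocytes as epidermal cells pooled from several mice after BMT + T cells. Cells are not assigned to animals, so the spread between animals cannot be seen. The sample titles number both libraries as keratinocyte replicates, so whether the labels mark a difference in treatment cannot be settled here. With 1 library under each label, no difference between the labels has a replicate check, and no test was run. Cells of 1 library share their source and are not replicates.

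The hair follicle is renewed by stem cells of the bulge, the lower part of the permanent outer root sheath, while the isthmus and infundibulum above it and the sebaceous gland keep stem cells of their own. Wnt signaling, which R-spondins strengthen through Lgr receptors, activates bulge stem cells, and bone morphogenetic protein (BMP) signaling keeps them quiescent. Among the transcription factors, *Sox9* specifies bulge stem cells and the outer root sheath, *Lhx2* is a LIM homeobox factor that maintains the bulge, *Gata6* is a zinc finger factor of the upper follicle and sebaceous duct, and *Nfatc1* is a calcineurin-dependent factor linked to stem cell quiescence. Among the surface proteins, *Lgr5* and *Lgr6* encode receptors for R-spondins, *Lrig1* encodes a negative regulator of ErbB receptors found at the junction of follicle and gland, and *Cd34* encodes a sialomucin used to isolate mouse bulge cells. *Bmp7* encodes a secreted BMP ligand, and *Postn* encodes periostin, a secreted matrix protein that binds integrins.

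The keratinocyte libraries held 2836 cells with 27817737 unique molecular identifiers (UMIs, a count of captured transcripts) in BMT and 2590 cells with 24959785 UMIs in BMT + T cells, and 2 cell barcodes occurred in both. The authors annotated 5 clusters. Follicular cells were 278 cells (9.80%) in BMT and 259 cells (10.0%) in BMT + T cells, at median depths of 8070 and 7913 UMIs per cell. The other clusters were Basal (1684 and 1712 cells), Differentiated (493 and 353 cells), KC_Four (225 and 150 cells) and KC_Five (156 and 116 cells). In all that follows, paired values are given in the order BMT, BMT + T cells, and a level is the UMIs of a gene summed over the cells of a cluster per 10000 UMIs summed over the same cells. Levels were compared between clusters and libraries for 1 gene at a time, because the counts are not scaled to transcript length and capture differs between genes. Intervals are exact at 95% (Poisson for levels, Clopper-Pearson for shares of cells) and cover counting error only.

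The Follicular label was checked against marker lists. A list of 18 upper follicle genes summed to 199 and 193 UMIs per 10000 in Follicular cells and to 6.54 and 9.01 in Basal cells. *Krt75* and *Ccl2* had no UMI in Follicular cells of BMT, and *Plet1* and *Klk10* had none in those of BMT + T cells. Of the genes with at least 20 Follicular UMIs, 11 of 14 upper follicle, 10 of 16 bulge and outer root sheath and 10 of 12 sebaceous gland genes were highest in Follicular cells in both libraries, against 22.3% of all 9814 genes. The minimum was set on Follicular cells themselves, so genes low there were left out and the counts are no test of the label. The cluster held genes of all 3 compartments. The bulge and outer root sheath list, however, summed to 63.3 and 75.1 in Follicular cells and to 65.1 and 69.7 in Basal cells. *Krt15* gave 10457 of the 16013 and 11473 of the 16983 Follicular UMIs of this list. Its level was 41.3 and 50.7 in Follicular cells and 45.1 and 48.5 in Basal cells. The Follicular cluster also held cells with transcripts of other cell types. UMIs of at least 2 genes of a list for fibroblast, melanocyte, endothelial, immune, Merkel or mural cells were found in 13 and 18 Follicular cells, of which 8 and 11 had fibroblast genes and 4 and 5 melanocyte genes. The fibroblast list summed to 3.05 and 3.27 UMIs per 10000 in Follicular cells, mostly *Dcn*, and the melanocyte list to 1.11 and 1.53. Values without these cells are given where the cells held a large share of a gene's UMIs. The names KC_Four and KC_Five give no position in the skin. A list of 10 cell cycle genes summed to 96.1 and 100 in KC_Four and 79.9 and 83.7 in KC_Five. The same list was at 13.7 and 11.4 in Basal cells. The paper describes a cluster of cycling cells and a cluster of putative *Cdc20*+ stem cells.

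Promoter sequences are shown for 4 of the genes, which between them cover the patterns described below: a gene found mainly in Follicular cells, a gene spread over other clusters too, a gene low in Differentiated cells and a gene highest outside the Follicular cluster. They are the 250 bases before the transcription start in RefSeq on GRCm38.p6, 5′ to 3′ on the strand of the gene. *Lhx2* and *Postn* each have 2 starts in the table, and the first start of *Lhx2* (chr2:38339031-38339280, plus strand) and the second of *Postn* (chr3:54360857-54361106, plus strand) are printed. The *Lgr6* window is at chr1:135105277-135105526 and the *Lrig1* window at chr6:94700146-94700395, both on the minus strand. Capitals mark matches, on either strand, to the TATA box (letters TATAAA), the core of SOX factor sites (letters AACAAT), the core of LIM homeobox factor sites (letters TAATTA) and the core of GATA factor sites (letters AGATAA).
Lhx2: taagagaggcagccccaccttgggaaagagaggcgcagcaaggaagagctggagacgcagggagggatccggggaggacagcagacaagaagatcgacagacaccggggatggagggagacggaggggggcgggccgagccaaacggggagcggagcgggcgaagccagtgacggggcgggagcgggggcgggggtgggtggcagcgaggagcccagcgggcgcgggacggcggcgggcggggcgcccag
Lrig1: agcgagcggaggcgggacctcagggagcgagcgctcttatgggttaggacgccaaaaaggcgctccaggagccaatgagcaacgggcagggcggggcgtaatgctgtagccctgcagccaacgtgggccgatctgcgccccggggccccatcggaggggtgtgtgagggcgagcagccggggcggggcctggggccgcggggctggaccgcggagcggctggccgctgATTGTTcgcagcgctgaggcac
Lgr6: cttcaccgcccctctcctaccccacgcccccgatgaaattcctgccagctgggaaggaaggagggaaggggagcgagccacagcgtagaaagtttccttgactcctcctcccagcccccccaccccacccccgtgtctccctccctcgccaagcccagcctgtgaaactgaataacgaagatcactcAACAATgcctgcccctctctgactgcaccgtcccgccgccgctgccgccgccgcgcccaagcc
Postn: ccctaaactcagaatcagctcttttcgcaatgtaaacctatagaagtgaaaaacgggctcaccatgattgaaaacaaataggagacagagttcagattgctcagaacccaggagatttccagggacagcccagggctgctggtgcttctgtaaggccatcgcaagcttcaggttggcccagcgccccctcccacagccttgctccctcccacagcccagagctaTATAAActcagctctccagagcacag
*Postn* has the TATA box starting 26 bases before its second start. The SOX core starts 63 bases before the start of *Lgr6*, and its reverse complement lies 22 bases before that of *Lrig1*. The window of the first *Postn* start, which is not printed, has the SOX core 165 bases before that start. The *Lhx2* window holds none of the 4 motifs. Of 32851 promoter windows of this length, 12.4% hold the TATA box, 9.42% the SOX core, 4.84% the LIM homeobox core and 9.99% the GATA core. The G and C content of the printed windows was 72.8% for *Lhx2*, 71.6% for *Lrig1*, 65.2% for *Lgr6* and 52% for *Postn*, beside a median of 52.4% over all windows. The windows not printed were at 68.4% for the second start of *Lhx2* and 40.4% for the first of *Postn*. The matches are descriptions of letters and not binding sites.

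*Sox9*, *Lhx2*, *Lgr5* and *Gata6* were found mainly in Follicular cells. *Sox9* (chromosome 11, 112782210 to 112787757) had 565 UMIs in Follicular cells of BMT, a level of 2.23 (2.05 to 2.43), and 427 UMIs in those of BMT + T cells, a level of 1.89 (1.71 to 2.08). All other keratinocytes together held 66 and 68 *Sox9* UMIs, which made the Follicular level 85.6-fold and 63.0-fold theirs. The next highest cluster in either library was KC_Five, with 8 UMIs in each. *Lhx2* (chromosome 2, 38339271 to 38369737) had 113 and 125 Follicular UMIs, at levels of 0.447 (0.368 to 0.537) and 0.553 (0.460 to 0.659), and these were 72.9% and 84.5% of its UMIs in keratinocytes. KC_Four, the next in order, had 20 and 5. The Follicular cells with another cell type's genes held 10 of the 113 and 27 of the 125 UMIs, and without those cells the *Lhx2* level was 0.420 and 0.458.

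*Lgr5* (chromosome 10, 115450314 to 115587780) was sparse, with 48 and 46 UMIs in 24 and 24 Follicular cells, a level of 0.190 (0.140 to 0.252) and 0.203 (0.149 to 0.271). The 4 remaining clusters held 2 and 7 *Lgr5* UMIs in all. No *Lgr5* UMI was seen among the 1684 Basal cells of BMT, which allows a level of up to 0.00202. *Gata6* had a larger share of its UMIs in Follicular cells than *Sox9*, *Lhx2* or *Lgr5* in both libraries: 138 and 146 UMIs in Follicular cells, at levels of 0.545 (0.458 to 0.644) and 0.646 (0.545 to 0.759), were 98.6% and 98.0% of all its keratinocyte UMIs. Only 2 and 3 *Gata6* UMIs lay elsewhere. Follicular cells with another cell type's genes held 7 of the 48 and 10 of the 46 *Lgr5* UMIs, and 0 and 1 of the *Gata6* UMIs.

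*Lrig1*, *Nfatc1* and *Bmp7* were also highest in Follicular cells, but most of their UMIs came from other clusters. *Lrig1* (chromosome 6, 94604529 to 94700298) had a Follicular level of 0.403 (0.329 to 0.489) and 0.539 (0.448 to 0.644), 7.72-fold and 7.90-fold that of the other cells, and 43.6% and 44.0% of its UMIs. *Nfatc1* was at 0.213 (0.160 to 0.279) and 0.301 (0.234 to 0.381), 3.16-fold and 4.71-fold the other cells, and Basal cells held 122 and 107 of its UMIs beside 54 and 68 in Follicular cells. *Bmp7* (chromosome 2, 172868012 to 172940321) was at 0.557 (0.469 to 0.657) and 0.703 (0.598 to 0.821), which is 1.86-fold and 2.52-fold the other cells. The *Bmp7* levels of Basal, Differentiated and KC_Four cells ran from 0.271 to 0.347 in BMT and from 0.282 to 0.301 in BMT + T cells. The intervals of these 3 clusters overlap in each library, so their order is not clear of counting error. KC_Five had the lowest *Bmp7* level, 0.145 and 0.172.

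*Lgr6* and *Postn* were not concentrated in Follicular cells. *Lgr6* (chromosome 1, 134983300 to 135105374) was at 0.577 (0.487 to 0.679) and 0.548 (0.456 to 0.654) in Follicular cells. Basal cells were at 0.523 (0.487 to 0.561) and 0.531 (0.495 to 0.569), within the interval of the Follicular level in both libraries, and they held 776 and 808 UMIs against 146 and 124. Differentiated cells had the lowest *Lgr6* level, 0.0283 (0.0158 to 0.0466) and 0.0240 (0.0110 to 0.0455). *Postn* (chromosome 3, 54359267 to 54391041) was the exception to the Follicular order. Its level was highest in KC_Four, at 4.13 (3.92 to 4.35) and 2.64 (2.44 to 2.85), followed by Basal cells at 3.73 (3.63 to 3.83) and 2.24 (2.16 to 2.31). Follicular cells were at 2.25 (2.06 to 2.44) and 2.17 (1.98 to 2.37), and Differentiated cells were lowest at 1.31 and 0.959. In BMT + T cells the Follicular and Basal intervals of *Postn* overlap.

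*Cd34* (chromosome 1, 194938821 to 194961292), the usual surface marker of mouse bulge cells, was close to the limit of detection. It had 5 UMIs in 3 Follicular cells of BMT and 3 UMIs in 1 Follicular cell of BMT + T cells. The remaining keratinocytes held 2 and 0. Follicular cells with another cell type's genes held 1 of the 5 and all 3 of the UMIs, so that no *Cd34* level can be read for either library. Of the other 9 genes, 8 were highest in Follicular cells in both libraries, *Postn* being the exception, where 22.3% of all genes tested were. For *Lgr6* the order rests on a difference within counting error. The clusters were made from the same cells, so these orders describe the annotation and the genes together and are no test.

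**Figure D1:**
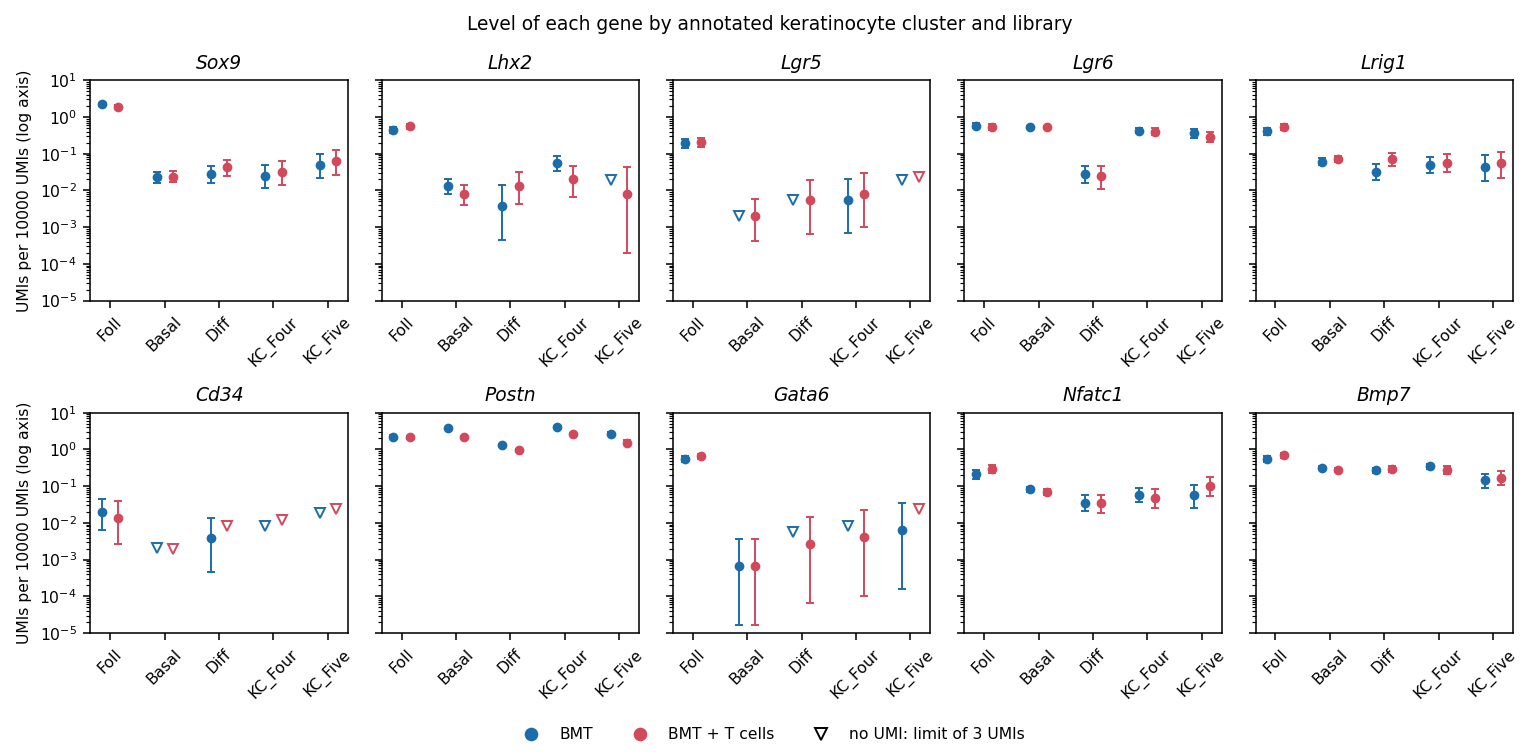
Level of each of the 10 genes (UMIs per 10000 UMIs, log axis) in the Follicular (Foll), Basal, Differentiated (Diff), KC_Four and KC_Five cells of the BMT (blue) and BMT + T cells (red) libraries. Points are summed levels, bars are exact 95% Poisson intervals and open triangles are the limit of 3 UMIs where no UMI was found. Sox9, Lhx2, Lgr5 and Gata6 stand apart in Follicular cells, Lgr6 is lowest in Differentiated cells and Postn is highest in KC_Four.

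The share of cells with a UMI of each gene was then counted. Each cell was drawn down to 2500 UMIs, which left out no cell, because the clusters differ in depth. *Sox9* was found in 42.1% (36.2 to 48.1) and 34.4% (28.6 to 40.5) of Follicular cells and in 0.406% and 1.42% of Differentiated cells. Differentiated cells served as the reference cluster, and whether their UMIs are free RNA or their own was not tested. Before thinning these shares were 73.0% and 65.6% in Follicular and 1.83% and 3.97% in Differentiated cells, at median Differentiated depths of 10113 and 10403 UMIs. *Lhx2* was found in 10.8% and 12.4% of thinned Follicular cells against 0.203% and 0.567% of Differentiated cells. *Lgr5* was found in 4.32% and 5.41% against 0 of 493 and 1 of 353 Differentiated cells. *Gata6* was found in 10.8% and 15.1% of thinned Follicular cells and in no thinned Differentiated cell. *Lrig1* was at 10.4% and 11.2% against 1.22% and 1.98%, and *Lgr6* was at 10.8% and 15.1% against 0.609% and 1.42%. The share of *Lgr6* in thinned Basal cells, 12.6% and 12.4%, lay on either side of the Follicular one. *Nfatc1* was at 3.60% and 6.18% against 1.22% and 1.13%. For *Bmp7* (13.7% and 13.5% against 6.69% and 7.65%) and *Postn* (24.5% and 29.0% against 16.6% and 14.4%) the reference share was high, as their levels in Differentiated cells were.

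Cells also differed in how many UMIs of a gene they held. *Postn* was absent from 172 of 278 and 150 of 259 Follicular cells, while 40 and 39 cells with 5 or more UMIs held 79.9% and 68.4% of its UMIs. The 10 highest cells held 39.4% and 30.2% of the *Postn* UMIs, 46.0% and 48% of those of *Lhx2* and 58.3% and 67.4% of those of *Lgr5*. *Sox9* was spread over 203 and 170 Follicular cells, at a mean of 2.78 and 2.51 UMIs in those that had it. *Nfatc1* mostly came as single UMIs, with a mean of 1.20 and 1.26. Counting all 10 genes, a Follicular cell had UMIs of a median of 3 of them in each library, 14 and 13 cells had none, and the most in 1 cell was 8 and 7.

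The libraries were compared within each cluster as the log2 ratio of the BMT + T cells level over the BMT level. The ratio is given with its exact counting interval where both libraries had at least 10 UMIs of the gene, and counts of genes past 2-fold take genes with at least 20 UMIs in both libraries together. In Follicular cells none of the 9 genes tested was past 2-fold, where 3.64% of all 9814 genes were. *Sox9* stood at -0.24 (-0.43 to -0.06) and *Lrig1* at 0.42 (0.03 to 0.81), the only Follicular ratios with an interval that excluded 0. *Lhx2* was at 0.31 (-0.07 to 0.69), *Nfatc1* at 0.49 (-0.04 to 1.04), *Bmp7* at 0.34 (-0.00 to 0.67) and *Gata6* at 0.24 (-0.10 to 0.59). *Lgr5* was at 0.10 (-0.52 to 0.71), *Lgr6* at -0.07 (-0.43 to 0.28) and *Postn* at -0.05 (-0.23 to 0.13). The median over the 9 genes was 0.24, beside -0.01 over all genes, 0.20 for the bulge list and -0.49 for the sebaceous gland list. Leaving out cells with *Mgst1* or *Scd1* changed the sign of 3 of the 9 ratios, on few UMIs. *Bmp7* was then at 0.624 and 0.419, *Nfatc1* at 0.208 and 0.161 and *Lgr5* at 1.04 and 0.838. The part of the mix of cells in these ratios was not tested. The intervals of the ratios hold no variation between animals, sorts or libraries, so none of the ratios can be assigned to the T cells.

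*Postn* had lower levels in BMT + T cells in the clusters other than Follicular. In Basal cells its UMIs were 5541 in BMT and 3399 in BMT + T cells, a log2 ratio of -0.74 (-0.80 to -0.68). The ratio was -0.65 (-0.78 to -0.51) in KC_Four, -0.81 (-1.06 to -0.56) in KC_Five and -0.45 (-0.64 to -0.27) in Differentiated cells. The interval in Follicular cells does not overlap these 4, but whether the clusters differ was not tested. The lower Basal level went with fewer cells and with fewer UMIs in each. *Postn* was found in 63.2% and 53.3% of Basal cells (42.2% and 31.2% after thinning), cells with 5 or more UMIs numbered 413 and 254, and the mean in cells with a UMI was 5.20 and 3.73. A fall of more than 1.5-fold was seen in 1.06% of 9535 Basal, 1.72% of 5943 KC_Four and 1.8% of 3940 KC_Five genes with at least 100 UMIs, a rule chosen after the values were seen. In Basal cells 40 of those 9535 genes (0.420%) fell more than *Postn*. The immune list moved with the libraries too, from 0.310 to 2.28 UMIs per 10000 in Basal cells. Of its 6 genes, *Cd74*, which keratinocytes can also express, gave 455 and 3408 of its 460 and 3461 UMIs, while *Ptprc*, the gene of CD45, had 0 and 3. The part of these transcripts in the *Postn* ratio was not tested.

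None of the 7 genes tested in Basal cells was past 2-fold (2.74% of all genes), and none of 4 in KC_Five (3.46%). In Differentiated cells 1 of 6 was, *Lrig1* with 17 and 27 UMIs and a log2 ratio of 1.17 (0.24 to 2.13), where 2.65% of genes were. In KC_Four 1 of 6 was, *Lhx2* with 20 and 5 UMIs, where 2.95% of genes were. Both rest on few UMIs. The interval of *Bmp7* held 0 in every cluster, with ratios of -0.16 (-0.36 to 0.03) in Basal, 0.15 in Differentiated, -0.29 in KC_Four and 0.25 in KC_Five cells. *Lgr6* in Basal cells was at 0.02 (-0.12 to 0.17).

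**Figure D2:**
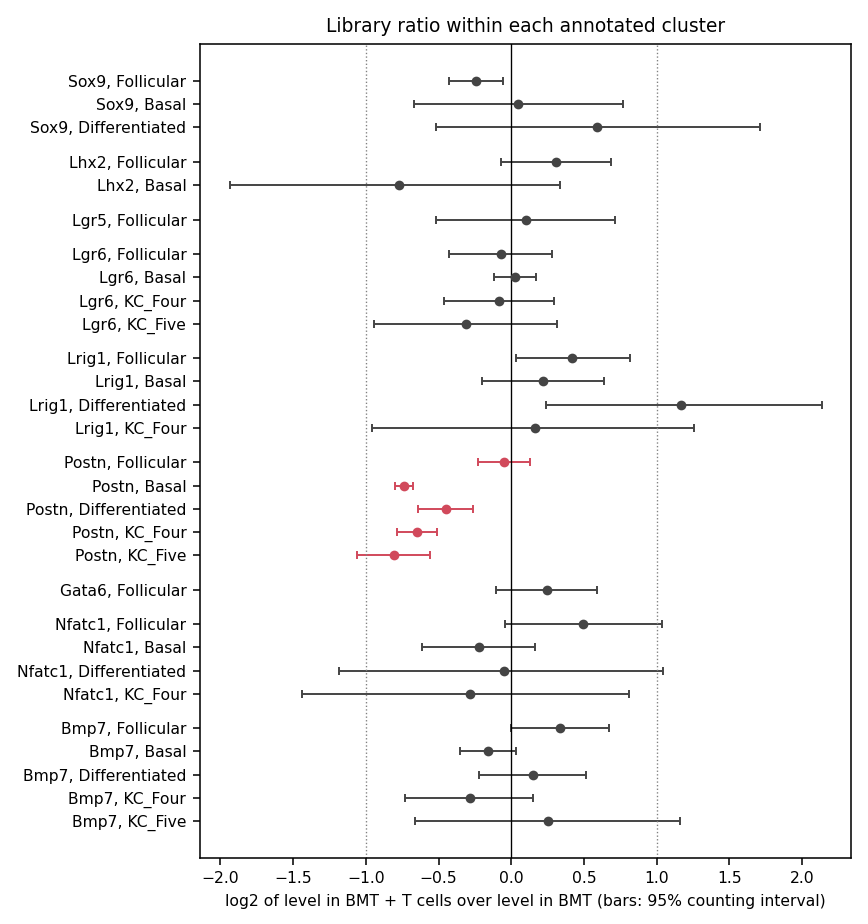
Log2 ratio of the level in BMT + T cells over the level in BMT for each gene and annotated cluster with at least 10 UMIs in both libraries. Points are ratios, bars are 95% counting intervals, dotted lines mark 2-fold and Postn is in red. Postn lies below 0 in Basal, Differentiated, KC_Four and KC_Five cells and at -0.05 in Follicular cells.

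Detection of the genes in the same Follicular cells was then counted for all 45 pairs, in cells thinned to 2500 UMIs, and set against the number of cells that the product of both shares gives. *Lhx2* and *Lgr5*, both genes of the bulge, were the only pair found together in more than 2 times that number of cells in both libraries. They shared 9 cells in BMT, where 1.29 were given by the product, and 11 cells in BMT + T cells, where 1.73 were given. Of the *Lgr5* cells, 75% (42.8 to 94.5) and 78.6% (49.2 to 95.3) also had *Lhx2*, beside 10.8% and 12.4% of all Follicular cells. Without thinning the counts were 19 against 4.14 and 16 against 4.45. Leaving out cells with another cell type's genes gave 8 against 1.16 and 7 against 1.04. *Lgr5* and *Gata6* were not found together in any thinned cell, where 1.29 and 2.11 were given, and in 2 and 1 unthinned cells, where 5.61 and 6.58 were given.

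*Postn* and *Gata6* shared fewer cells than the product of their shares gave. They were found together in 1 thinned cell of BMT, where the product gave 7.34, and in 6 of BMT + T cells, where it gave 11.3. The log2 odds ratio, given for pairs with a product of at least 5 cells in each library, was -2.87 and -1.24, and without thinning it was -1.59 and -1.31 on 13 and 19 shared cells. *Sox9* was found with *Gata6* at log2 odds ratios of 0.73 and 0.67 and with *Lrig1* at 1.06 and 0.72, above 0 in both libraries with and without thinning. *Sox9* and *Lhx2* were at 0.30 and 1.07, but at -0.04 and -0.10 without thinning, so no direction can be read for them. *Sox9* and *Postn* were at -1.02 and 0.03 and thus differed between the libraries. Of the 11 thinned pairs with an odds ratio, 5 were above 0 in both libraries, 4 below 0 in both and 2 on opposite sides. Without thinning, *Gata6* was found with *Bmp7* at 1.61 and 0.79 (37 and 36 shared cells) and with *Lrig1* at 0.90 and 1.93 (22 and 35 shared cells). These values carry no correction for depth.

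**Figure D3:**
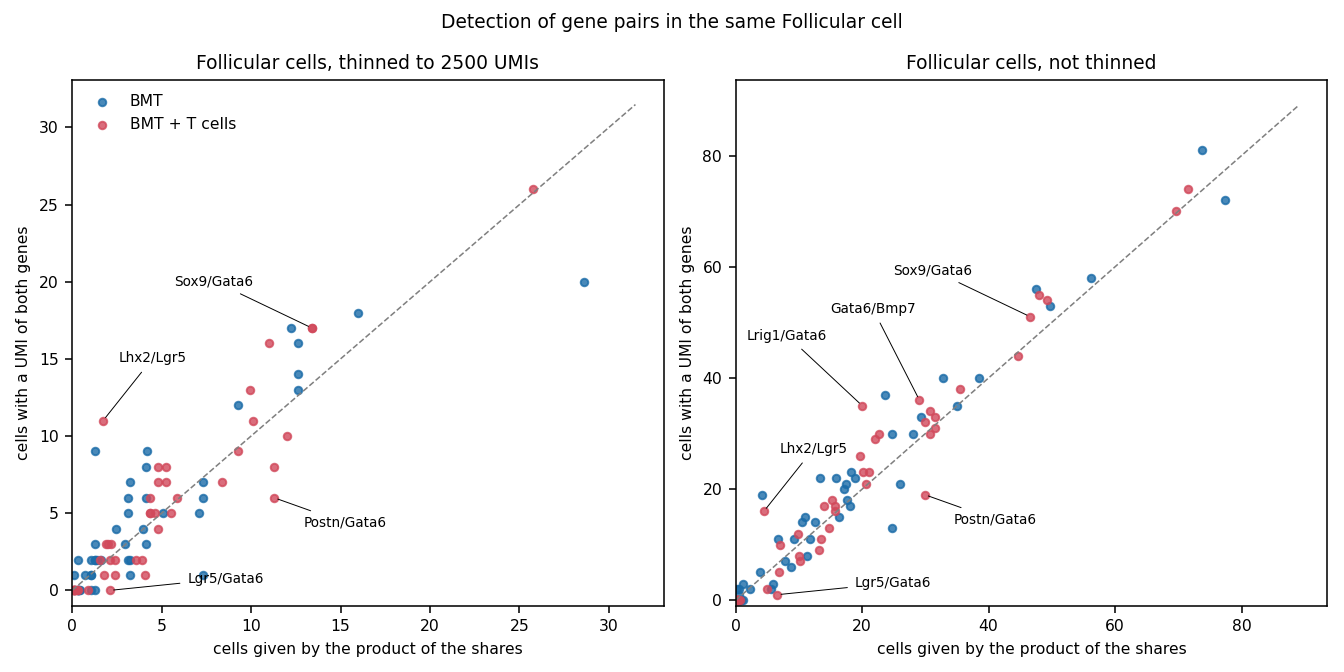
Number of Follicular cells with a UMI of both genes of a pair against the number given by the product of the shares of both genes, for all 45 pairs in BMT (blue) and BMT + T cells (red), thinned to 2500 UMIs (left) and not thinned (right). The dashed line is equality and the named points are those of BMT + T cells. Lhx2/Lgr5 lies above the line and Postn/Gata6 and Lgr5/Gata6 lie below it in both panels.

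Marker lists were compared between Follicular cells with and without a UMI of each gene after thinning, for the 7 genes with at least 20 such cells in each library. Cells with *Lhx2* (30 and 32) were higher in the bulge and outer root sheath list, by log2 ratios of 1.56 and 1.20. Their upper follicle list was lower by -2.49 and -2.73 and their sebaceous gland list by -2.66 and -2.23. Unthinned, the upper follicle ratio of *Lhx2* shrank to -0.82 and -1.17. Single markers were picked from the lists after their values were seen. The keratin gene *Krt15* gave most Follicular UMIs of the bulge list and was also high in Basal cells (45.1 and 48.5, unthinned). It was at 140.5 and 125 UMIs per 10000 in cells with *Lhx2* and at 44.1 and 48.7 in cells without. The transcription factor *Tbx1* was at 3.33 and 3.00 against 0.419 and 0.652. *Krt79*, the keratin of the upper follicle, had 1 and 0 UMIs in thinned cells with *Lhx2*, where cells without were at 29.0 and 27.3 UMIs per 10000. Unthinned, *Krt79* was not absent from cells with *Lhx2*, where it reached 128 and 109 UMIs in single cells.

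Cells with *Gata6* (30 and 39) were opposite to *Lhx2* cells in the upper follicle list, which was higher by 1.91 and 1.65 (2.66 and 2.17 unthinned). Their sebaceous gland list was lower, as in *Lhx2* cells, at -1.06 and -0.96. *Krt79* was at 68.0 and 63.2 in them against 20.8 and 17.0, the beta-defensin *Defb6* at 140.4 and 181 against 33.4 and 49.6, and the protease inhibitor *Cst6* at 258.8 and 124 against 41.8 and 30.5. Their bulge list was at 0.01 and 0.87, which differed between the libraries. *Lrig1* cells (29 and 29) were higher in the upper follicle list as well, by 0.95 and 0.83, and in the bulge list by 0.66 and 0.33, but the upper follicle ratio fell to 0.37 and 0.07 without thinning.

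*Postn* cells (68 and 75) had another makeup, with a lower upper follicle list (-1.93 and -1.38), a lower sebaceous gland list (-1.88 and -1.85) and a higher interfollicular basal list (0.60 and 0.52). The basal keratin *Krt14* was at 184 and 175 in them against 104 and 108, and *Krt5* at 101 and 97.2 against 49.7 and 55.6. *Sostdc1*, a BMP and Wnt antagonist gene of the upper follicle list, was higher, unlike that list, at 18.7 and 19.0 against 8.57 and 9.93. *Lgr6* cells (30 and 39) were lower in the upper follicle list (-2.03 and -2.04) and higher in the bulge list (0.83 and 0.46). *Sox9* cells (117 and 89) were higher in the bulge list (0.67 and 0.57) and in the upper follicle list (0.60 and 0.17). Unthinned these ratios were 0.38 and 0.22 for the bulge and 1.25 and 0.86 for the upper follicle, so their order depends on thinning. *Bmp7* cells (38 and 35) were moderately higher in the upper follicle list (0.57 and 0.31).

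**Figure D4:**
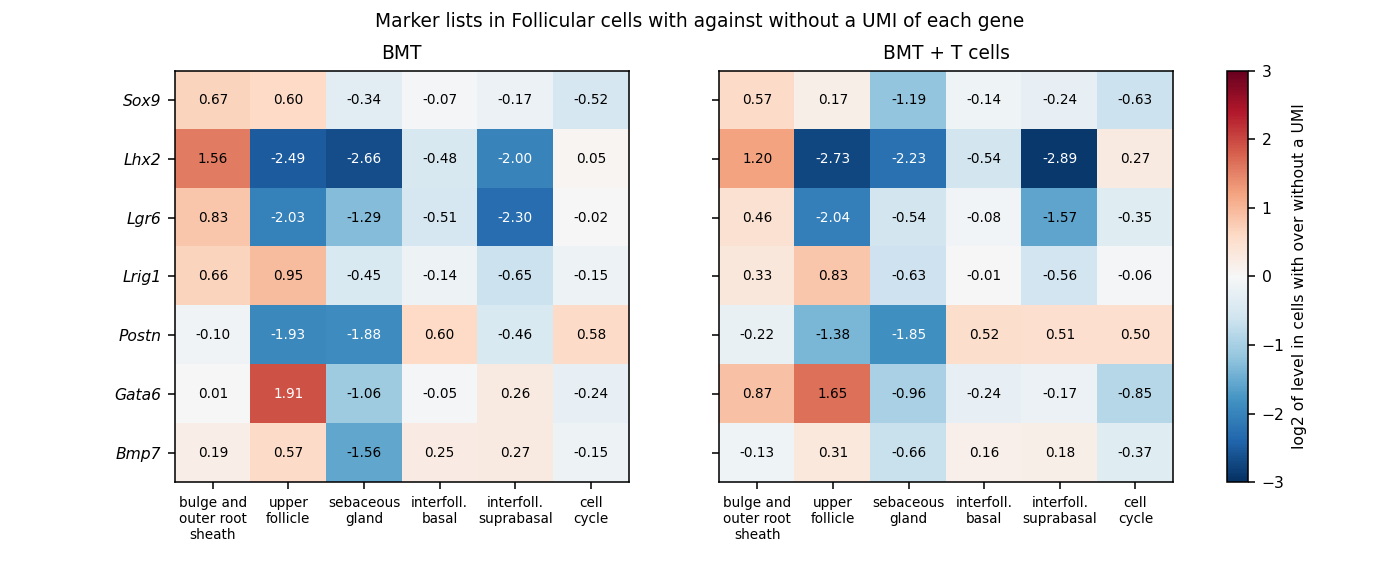
Log2 ratio of the summed level of each marker list in Follicular cells with a UMI of a gene over those without, thinned to 2500 UMIs, for the 7 genes with at least 20 such cells per library. Red is higher and blue lower in cells with the gene, with the ratio printed in each field. Lhx2 and Gata6 are opposite in the upper follicle list, at -2.49 and 1.91 in BMT and at -2.73 and 1.65 in BMT + T cells.

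On the deposited map of the cells (UMAP, in which cells of like expression lie close together) many *Lhx2* and *Lgr5* cells lay close together. A window of this map was drawn around them after the values were seen (UMAP 1 from 6.2 to 8.2, UMAP 2 from 2.4 to 3.8), so that its shares of both genes follow from how it was chosen. It held 39 and 41 Follicular cells, 14.0% and 15.8% of the cluster, with 74.3% and 77.6% of the *Lhx2* UMIs and 87.5% and 89.1% of the *Lgr5* UMIs of Follicular cells. *Lhx2* was found in 31 of 39 and 31 of 41 cells inside, against 17 of 239 and 17 of 218 cells outside. For *Gata6* the window held 0 and 1 UMIs of 138 and 146, and for *Krt79* 1 and 1 UMIs of 6755 and 5650. *Sox9* was present on both sides of the border, in 69.2% and 63.4% of the cells inside and 73.6% and 66.1% outside. These shares are unthinned, and the cells inside were shallower. The *Sox9* level was higher inside, at 3.90 and 3.27 against 2.06 and 1.72. Inside the window *Krt15* was at 112 and 93.6 UMIs per 10000 against 34.1 and 45.6, and *Tbx1* at 2.97 and 3.19 against 0.266 and 0.287. *Cd34* had 4 and 0 UMIs there.

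The cells of the window were shallower, with median depths of 5207 and 4611 UMIs against 8585 and 8427, and 5 and 11 of them had another cell type's genes. Without those cells *Lhx2* was found in 28 of 34 and 23 of 30 cells of the window, at levels of 3.63 and 4.10, and *Lgr5* in 17 and 14 cells, at 1.72 and 1.82. *Dcn*, a fibroblast gene, was at 3.82 and 9.94 inside the window and 2.21 and 1.46 outside. The melanocyte gene *Pmel* had 100 and 115 UMIs inside, all of them in the cells left out. *Dcn* kept 63 of its 90 and 176 of its 240 UMIs without those cells, at 3.09 and 10.3. These *Dcn* UMIs came from only 10 of 34 and 3 of 30 cells. Most Follicular cells, 82.7% and 79.5%, had a UMI of *Mgst1* or *Scd1*. A UMI of these sebaceous genes thus does not by itself mark a sebaceous cell. The 48 and 53 Follicular cells without one were shallower, at median depths of 5478 and 5461 UMIs against 8785.5 and 8603.5. These cells also had more *Lhx2* and *Lgr5*. *Lhx2* was at 1.84 and 1.90 in them against 0.268 and 0.338 in the rest, and *Lgr5* at 1.04 and 0.838 against 0.0803 and 0.103.

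**Figure D5:**
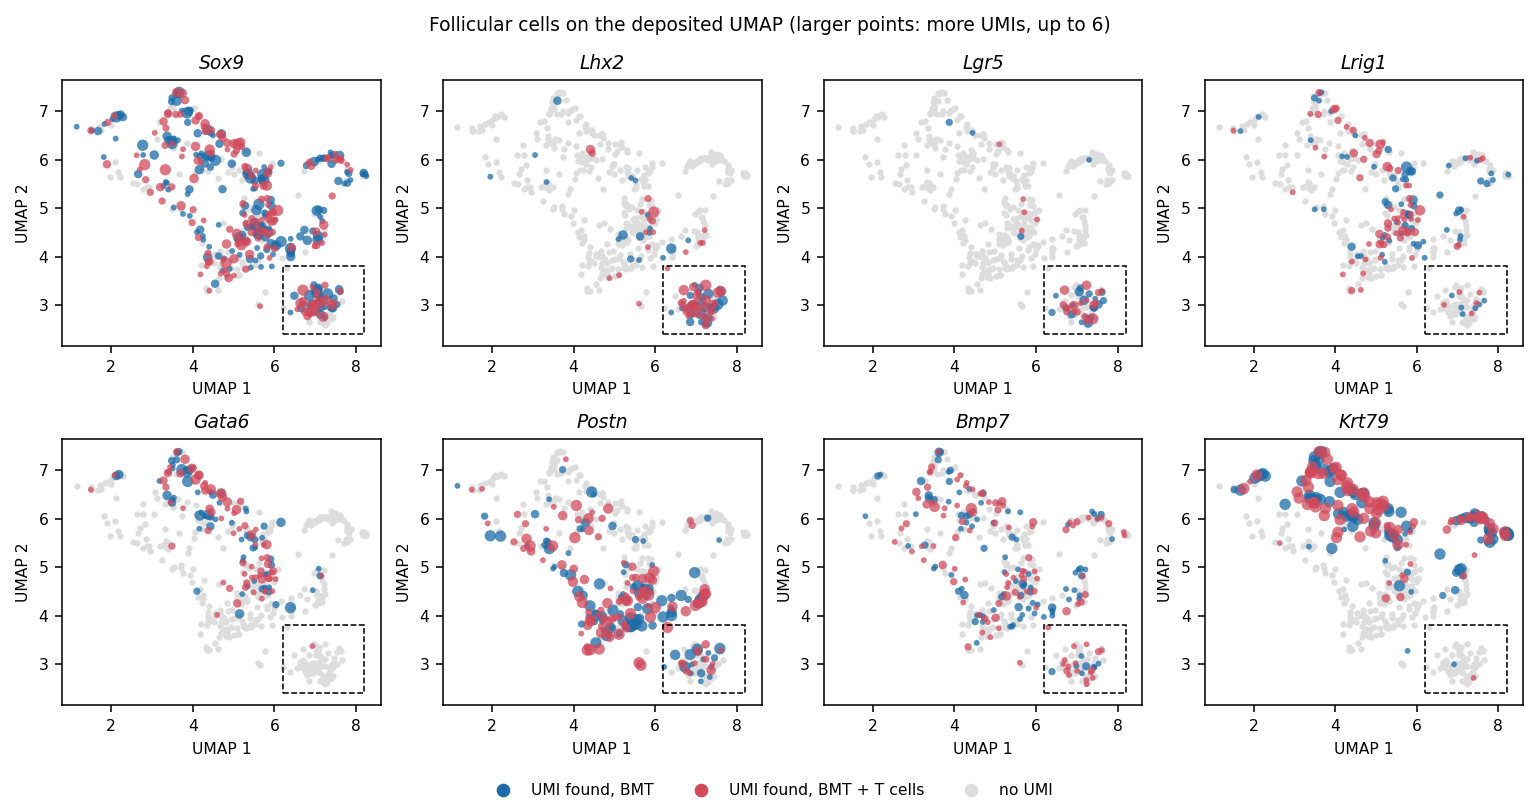
Follicular cells on the deposited UMAP, with cells that had a UMI of the named gene in blue (BMT) or red (BMT + T cells), larger with more UMIs, and other cells in gray. The dashed box is the window drawn after the values were seen, and 17 Follicular cells lie outside the area shown. Lhx2 and Lgr5 cells gather inside the box, Gata6 and Krt79 cells outside it, and Sox9 cells lie on both sides.

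Genes with the most similar patterns were named by a rule. Across Follicular cells thinned to 2500 UMIs, among 3823 genes, the Spearman coefficients of *Lhx2* were highest with *Crip1* (0.34 and 0.37), *Krt15* (0.35 and 0.34) and *Tbx1* (0.36 and 0.31). Those of *Gata6* were highest with *Defb6* (0.35 and 0.30), *Krt79* (0.31 and 0.28) and the galectin gene *Lgals7* (0.27 and 0.31). *Postn* was most like *Krt5* (0.39 and 0.36), *Sostdc1* (0.32 and 0.33) and the chemokine gene *Cxcl14* (0.40 and 0.32). *Sox9* (led by *Afdn*, 0.19 and 0.19), *Lgr6* (*Ctnnal1*, 0.23 and 0.19), *Lrig1* (*Efnb2*, 0.18 and 0.18) and *Bmp7* (*Ahsa1*, 0.13 and 0.13) had no coefficient above 0.23 in both libraries, too weak in such sparse counts to be read. The cells of a library share its depth and preparation.

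Over the 10 profiles of library and cluster, the Pearson coefficient on log2(UMIs per 10000 + 0.1) among 9464 genes was highest for *Lhx2* with *Smpdl3b*, *Abi3bp* and *Adgrl3*, and for *Lgr5* with *Egr2*, *Fzd7* and *Gata6*. *Gata6* was closest to *Foxc1*, *Egr2* and *Timp2*, although it and *Lgr5* were seldom in the same cells, which profiles summed over a cluster cannot show. *Lrig1* was closest to *Adgrl3*, *Mitf* and *Runx1*, *Lgr6* to *Cpe*, *Pttg1ip* and *Sema5a*, *Nfatc1* to *Lifr*, *Marc2* and *Rnf19a*, and *Bmp7* to *Med22*, *Csnk1e* and *Mgat5*. *Postn* had the weakest best match, *Tsen15* at 0.94, followed by *Tkt* and *Casp8ap2*. The 5 clusters of a pair of libraries are not independent points, and a gene confined to 1 cluster resembles any other such gene on this measure.

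The pathways around these genes were compared between the libraries in Follicular cells. Of 17 BMP pathway genes with at least 20 UMIs, 1 was past 2-fold higher in BMT + T cells (*Bmp3*, a BMP antagonist, 4 and 22 UMIs) and 1 lower (*Bambi*, a pseudoreceptor, 47 and 19 UMIs), beside 3.64% of all genes. The antagonist *Sostdc1* was at 10.6 and 12.4 UMIs per 10000, *Id1*, a BMP target, at 2.24 and 2.36, and the receptor *Bmpr2* at 0.842 and 1.07. Of the 17, 6 were highest in Follicular cells in both libraries, *Sostdc1*, *Bmpr1a*, *Smad6*, *Smad7*, *Nog* and *Bambi*, where 22.3% of all genes were. The median log2 ratio of the list was 0.07, beside -0.01 for all genes.

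Of 23 Wnt and Lgr pathway genes, 1 was past 2-fold (3.64% of all genes), the ligand *Wnt6* with 35 and 67 UMIs. Highest in Follicular cells were 10 of the 23 (22.3% of all genes), among them *Lgr4*, the related R-spondin receptor, *Axin2* and *Lef1*. The ligand *Wnt4* was at 1.83 and 2.47, the transcription factor *Tcf7l2* at 1.55 and 1.82, and *Znrf3*, the ubiquitin ligase that R-spondins and Lgr receptors restrain, at 1.31 and 1.05. The median log2 ratio of the list was 0.06. None of 6 Hedgehog genes was past 2-fold and 4 were highest in Follicular cells, beside the same shares of all genes (*Ptch1*, *Gli1*, *Gli2* and *Sufu*). *Smo* was at 0.415 and 0.473, *Ptch1* at 0.186 and 0.296 and *Gli3* at 0.146 and 0.0796, and the median ratio was 0.18.

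The partners of *Lrig1*, *Nfatc1* and *Postn* were counted in the same way, beside 3.64% of all genes past 2-fold, 22.3% highest in Follicular cells and a median ratio of -0.01. Of 7 genes of the EGF receptor family and its ligands none was past 2-fold, 3 were highest in Follicular cells and the median ratio was 0.22. Of the receptors, *Egfr* was at 0.621 and 0.721, *Erbb3* at 0.443 and 0.460 and *Erbb2* at 0.344 and 0.433. Of 6 calcineurin and NFAT genes none was past 2-fold, 1 was highest in Follicular cells and the median ratio was 0.19. *Ppp3ca*, the catalytic subunit of calcineurin, was at 1.43 and 1.58, *Rcan1*, its inhibitor, at 0.621 and 0.756, and *Ppp3cb* at 0.387 and 0.509. Of 10 genes of periostin matrix and receptors 1 was past 2-fold, *Fn1* with 45 and 88 UMIs, 3 were highest in Follicular cells and the median ratio was 0.47. *Fn1* and *Col1a1* are also fibroblast genes, and the Follicular fibroblast list is given above. *Tgfbi*, which encodes a matrix protein related to periostin, was at 2.23 and 2.36, and the integrin genes *Itgb1* at 1.38 and 1.51 and *Itgb5* at 0.561 and 0.730.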

How the data were processed

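Keratinocyte RNA was measured with the 10x Chromium 5′ kit. Per the labels, the authors used kallisto, bustools and Seurat with GRCm38; tool versions and the annotation are not given in the sources used here. Their methods remove cells with under 500 genes or over 20% mitochondrial reads, and likely doublets with DoubletFinder; none was sought again. The deposited expression values are the natural log of 1 plus UMIs per 10000 of the cell. Undoing the log gave whole UMIs for 100% of 15311900 values (tolerance 0.001). The deposited mitochondrial column is in percent, and the deposited UMAP coordinates carry no unit and are used as a score. The deposited keratinocyte metadata name the cluster (Leiden) and library of each cell.

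All genes with at least 20 UMIs in a cluster form the background. A log2 odds ratio has 0.5 added to each count. Thinning used a fixed seed. Likeness names the 3 closest genes per gene (at least 200 UMIs, or 50 Follicular cells). The matches of *Sox9* over the cluster profiles are not reported here. Named pathway genes are those past 2-fold and the 3 with the most Follicular UMIs. Genes and lists were chosen with earlier results of these data known. The scripts were tested on simulated data. Donor and host CD11b+MHCII+ tables served only as reference. Alternatives covered averaging over cells, scaling, thinning, count minimums and left-out cells. Tables were made with pandas 2.3.3 and NumPy 2.4.6 in Python 3.11.15, intervals with SciPy 1.17.1 and figures with matplotlib 3.10.9.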

Additional observations from a re-analysis of the deposited data

Results flagged for a closer look

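These values come from the donor and host CD11b+MHCII+ libraries, which no comparison above uses. Each is above the limit that a count of 0 allows (3 UMIs of the cells named). Not every value above that limit is listed, and *Lrig1* in host cluster 5, at 0.0604, is 1 of those left out. All are UMIs per 10000, and what they come from was not tested.

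In host clusters 1 to 4 (697 cells) *Nfatc1* was at 0.544, *Cd34* at 0.151, *Sox9* at 0.0846, *Bmp7* at 0.0755, *Lgr5* at 0.0574 and *Lgr6* at 0.0483. Host cluster 5 (43 cells at a median depth of 35812 UMIs) had *Krt14* at 205 and *Ptprc*, the CD45 gene, at 0.262. In it *Postn* was at 1.15, *Lgr6* at 0.637, *Bmp7* at 0.302, *Nfatc1* at 0.288 and *Sox9* at 0.127. Host *Krt14* was also found in 34.8%, 35.9%, 33.5% and 44.4% of the cells of clusters 1 to 4.

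In donor cells *Nfatc1* was at 0.193, 0.214 and 0.141 in BMT replicates 1 to 3 and at 0.167 in BMT + T cells. In BMT replicates 1 and 2 *Sox9* was at 0.00529 and 0.00793, *Lhx2* at 0.00500 and 0.00684 and *Lrig1* at 0.00412 and 0.00451. *Postn* was at 0.0182 in BMT replicate 2.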

How the results depend on the processing

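No paired analysis was possible because each label has 1 keratinocyte library and no result comes from a test. The number of the genes highest in Follicular cells in both libraries was 8 under every alternative run for it. *Lgr5* is among the 8 with 48 and 46 Follicular UMIs, and would not be tested under a minimum of 100 UMIs. Genes past 2-fold between the libraries numbered 357 in Follicular, 331 in Basal, 259 in Differentiated, 274 in KC_Four and 276 in KC_Five cells. In that order, a minimum of 100 UMIs gave 56, 91, 39, 40 and 19, a pseudocount of 0.1 gave 45, 42, 24, 39 and 37, and a fold of 1.5 gave 1205, 964, 899, 984 and 1074. Of the 10 genes, 2 were past 1.5-fold in each of Basal, Differentiated, KC_Four and KC_Five cells, while the minimum of 100 UMIs and the pseudocount each left 0 past 2-fold in Differentiated and KC_Four cells. With at least 100 UMIs, BMP genes past 2-fold went from 2 to 0 and those highest in Follicular cells from 6 to 3, Hedgehog from 4 to 1 and calcineurin and NFAT from 1 to 0; fewer genes are tested under that minimum.

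Levels moved most when Follicular cells with *Mgst1* or *Scd1* were left out (11 of 18 Follicular values moved, by up to 5.48-fold). Averaging over cells changed the sign of 4 of 29 library ratios, leaving out cells with *Mgst1* or *Scd1* 3 of 9, and both scalings 0. Of 22 log2 odds ratios, 8 changed sign without thinning, 4 at 5000 UMIs and 12 without cells with *Mgst1* or *Scd1*, and of 84 list ratios 16 did without thinning. All 61 shares moved without thinning. Leaving out cells with another cell type's genes, chosen after seeing the data, changed 1 odds ratio and 2 list ratios in sign. Depth limits genes with few UMIs, such as *Cd34* and *Lgr5*. The cause of these moves was not tested.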
